A study of Homo sapiens with 66 samples.

Results

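The MED19 knockout arm under vemurafenib of a Mediator knockout experiment in A375 cells is described here, as 6 libraries with their 3 controls, 9 of the 66 libraries of the series. These libraries were chosen by their labels alone. MED19 knockout cells carry sgRNA 1 (MED19sg1, 3 libraries) or sgRNA 2 (MED19sg2, 3 libraries), and control cells carry a guide named for GFP and have the genotype WT (GFPsg, 3 libraries). All 9 received 1 μM vemurafenib for 24 hours and all have the same batch number. A375 is a BRAF-mutant human melanoma line, and vemurafenib inhibits the mutant BRAF kinase that drives ERK signalling in it. For comparison, the same control and both MED19 guides were also profiled in DMSO, the solvent, and cells without MED23 or MED12 were profiled under the drug, each with its own pair of guides and 3 libraries per guide. The labels do not state whether each line is a clone or a pool, nor whether replicates were separate cultures, so the tests measure the spread between these libraries, which may be technical.

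Mediator is the large complex that carries signals from enhancer-bound transcription factors to RNA polymerase II. MED19 is a small subunit of its core, near the surface that holds the polymerase, and it has been linked to silencing of neuronal genes by the repressor REST. MED23 lies in the tail, which many activators contact, and MED12 belongs to the separable kinase module with CDK8 or CDK19. Melanoma cells under BRAF inhibition can keep a melanocytic or neural crest-like programme, set by the transcription factors SOX10 and MITF, or lose it for a dedifferentiated programme rich in receptor tyrosine kinases such as AXL and EGFR.

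Deposited gene counts of the 9 libraries summed to between 65878321 and 194226148, with a median of 112140762. Log2 CPM (counts scaled to the size of each library) of libraries of the same group correlated across genes at 0.9825 to 0.9916, and MED19 with control libraries at 0.9764 to 0.9844. Mitochondrial mRNAs took 2.42% to 2.76% of counts in the control and 2.31% to 2.81% after MED19 knockout. Melanocytic identity was checked against markers: SOX10, ERBB3 and DCT were abundant in the control, whereas MLANA (1.61 to 2.14 CPM), PMEL (1.36 to 1.71 CPM) and TYRP1 (0.597 to 0.809 CPM) were close to 0. Of 6 blood cell markers, HBB had no count in any of the 9 libraries and CD3E had under 10 counts in each, with a summed level of 10.6 to 11 CPM in the control, 10.5 to 11.5 with guide 1 and 10.2 to 11.3 with guide 2.

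MED19 mRNA fell under both guides but was not lost. The gene lies at chr11:57703714-57712323 of hg38 (GENCODE 29). Its level was 25.8, 24.2 and 24.4 CPM in the control, 12.1, 12.4 and 11.4 with guide 1 and 14.0, 13.9 and 12.6 with guide 2. No MED19 library reached a control library, and the levels came to 48.2% of control with guide 1 and 54.6% with guide 2, a log2 fold change of -0.96 ± 0.044 over both guides (adjusted p = 2.8e-24). In DMSO it was at 27.4, 26.7 and 26.9 CPM in the control, 12.2, 12.3 and 12.5 with guide 1 and 14.3, 12.4 and 14.3 with guide 2, again lower with both guides. MED23 had means of 46.9 CPM in the control, 54.5 and 56.5 with the MED19 guides, 20.4 and 20.1 with the MED23 guides and 46.9 and 44.6 with the MED12 guides, and MED12 had means of 147 CPM in the control, 121 and 127 with the MED19 guides, 144 and 133 with the MED23 guides and 37.3 and 26.9 with the MED12 guides. Adjusted p-values come from edgeR's quasi-likelihood test with Benjamini-Hochberg adjustment over 27453 genes, both guides are weighted equally, and ± after a log2 fold change is its standard error. Counts measure mRNA of every allele and do not show how much protein was left.

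Among the 33 measured Mediator subunits, MED19 had the lowest log2 fold change. With an adjusted p under 0.05, 11 subunits were higher and 12 lower, against 23.1% higher and 20.7% lower among all genes tested. The same shares of all genes apply to every list count of MED19 knockout against control given below. Core subunits MED9 (0.54), MED22 (0.48) and MED7 (0.36) rose on the log2 scale. MED12L (-0.80), a paralog of the kinase module's MED12, fell from a mean of 8.90 CPM in the control to 4.86 with guide 1 and 5.39 with guide 2. The scaffold subunits MED14 (-0.13) and MED1 (-0.02, adjusted p = 0.512) moved little.

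Loss of MED19 under the drug changed a broad set of genes, most by little. With an adjusted p under 0.05 and at least a 2-fold change, 1097 genes were higher (4% of those tested) and 1130 lower (4.12%), and without the fold requirement 6328 were higher and 5681 lower (43.7% in either direction). In 1825 of the 2227 genes called (81.9%) the 6 MED19 libraries did not overlap the 3 control libraries, against 36.6% of all genes tested. The genes were called on these same libraries, so a higher share among them is built in. Each guide alone gave an adjusted p under 0.05 with the same sign in 1639 of the 2227 (73.6%), and each guide alone also gave 2-fold in 1365 (61.3%). Both guides were compared with the same 3 control libraries, so these are not independent tests.

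The largest increases were in MAP2, DOCK2 and WNT9A. MAP2, a microtubule-associated protein of neurons, was at 1.57, 1.34 and 1.60 CPM in the control, 27.2, 28.6 and 27.5 with guide 1 and 32.9, 34.2 and 35.1 with guide 2. All 6 MED19 libraries were far above all 3 controls, a log2 fold change of 4.35 ± 0.096 (adjusted p = 5.06e-37). DOCK2, an activator of the GTPase Rac, was at 1.94, 2.27 and 1.92 CPM in the control, 26.3, 26.5 and 26.3 with guide 1 and 15.9, 15.9 and 14.6 with guide 2. Guide 1 was higher than guide 2 here, and neither overlapped the control, a log2 fold change of 3.31 ± 0.062 (adjusted p = 7.34e-40). PALLD, which encodes the actin organiser palladin, rose from a mean of 11.9 ± 0.440 CPM (SD, n = 3) to 89.5 ± 4.14 with guide 1 and 71.2 ± 2.14 with guide 2 (log2 2.75 ± 0.042). The remaining genes among the 10 highest, with their log2 fold changes, were the Wnt ligand WNT9A (3.22), the membrane protein TM4SF1 (2.98), the sodium leak channel NALCN (2.77), FAM135B (2.62), the ephrin receptor EPHA5 (2.60), PMAIP1 (2.56), which encodes the pro-death BH3 protein NOXA, and the desmosomal cadherin DSC2 (2.47). Genes were named in this way only where no MED19 library overlapped a control library and each guide alone passed the test.

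DCT, PCSK2 and ANGPTL7 had the largest decreases. DCT, the melanin synthesis enzyme dopachrome tautomerase, was at 820.4, 863 and 860.0 CPM in the control, 32.2, 33.5 and 25.8 with guide 1 and 131, 147 and 139.7 with guide 2. Every MED19 library was below every control library, and guide 1 was lower than guide 2, giving a log2 fold change of -3.70 ± 0.068 over both (adjusted p = 3.02e-40). PCSK2, a prohormone convertase, was at 82.6, 85.8 and 85.4 CPM in the control, 3.60, 3.73 and 3.23 with guide 1 and 12.2, 12.4 and 14.3 with guide 2. It showed the same order of groups, with a log2 fold change of -3.65 ± 0.080 (adjusted p = 4.39e-37). ANGPTL7, an angiopoietin-like secreted protein, fell from 33.3 to 35.0 CPM to 0.825 to 1.14 with guide 1 and 5.65 to 7.11 with guide 2 (log2 -3.74 ± 0.12). Also among the 10 lowest, with log2 fold changes, were the cytoskeletal NAV2 (-2.86), the potassium channel KCNJ10 (-2.73), the retinoid receptor RXRG (-2.66), the vitamin B12 carrier TCN1 (-2.56), the kinase AATK (-2.54), the cytokine IL24 (-2.49) and the chloride channel BEST1 (-2.48).

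The lineage programme fell in most of its members but was not lost. Of 15 measured melanocyte lineage transcription factors and receptors, 10 were lower and 4 higher (median log2 fold change -0.95, against -0.0050 over all genes tested). By at least 2-fold, 7 were lower and 1, not among those named in this paragraph, was higher. SOX10, which specifies neural crest and melanocytes, was at 1062, 1022 and 1076 CPM in the control, 451, 446 and 415 with guide 1 and 580.5, 581 and 584 with guide 2. The 3 groups did not overlap, with the control highest and guide 1 lowest, and the log2 fold change was -1.06 ± 0.047 (adjusted p = 7.12e-25). MITF, the melanocyte master regulator, was at 156, 152 and 153 CPM in the control, 78.3, 82.4 and 77.0 with guide 1 and 76.5, 83.4 and 79.7 with guide 2. Both guides lay together at about the same level below the control (log2 -0.95 ± 0.029, adjusted p = 5.54e-31). IRF4 (-1.91), TBX2 (-1.74), TFAP2B (-1.69), ZEB2 (-1.53) and SNAI2 (-1.36), transcription factors of the melanocyte and neural crest lineages, fell further on the log2 scale, as did the endothelin receptor EDNRB (-1.26). The Wnt effector LEF1 (0.64) and TFAP2A (0.33) rose, so the AP-2 paralogs TFAP2A and TFAP2B moved in opposite directions.

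Neural crest and glial genes fell alongside. Of 20 measured, 14 were lower and 4 higher (median log2 fold change -0.97). ERBB3, a neuregulin receptor, was at 1256, 1248 and 1268 CPM in the control, 374, 391 and 348 with guide 1 and 546, 554 and 562 with guide 2. Its groups did not overlap and guide 1 was lowest, with a log2 fold change of -1.47 ± 0.048 (adjusted p = 2.4e-30). NGFR, the nerve growth factor receptor that marks the neural crest-like state, was at 130.3, 126 and 128 CPM in the control, 45.5, 46.0 and 44.8 with guide 1 and 74.8, 73.2 and 67.1 with guide 2. It kept the same order of groups (log2 -1.16 ± 0.041, adjusted p = 6.03e-29). The GDNF family receptor GFRA2 (-2.25), the pioneer factor FOXD3 (-1.46) and RXRG, described above, also fell on the log2 scale. AQP1 (0.59), SORL1 (0.52) and L1CAM (0.20) moved the other way, and the glial filament gene GFAP did not pass (log2 -0.12, adjusted p = 0.491).

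**Figure D1:**
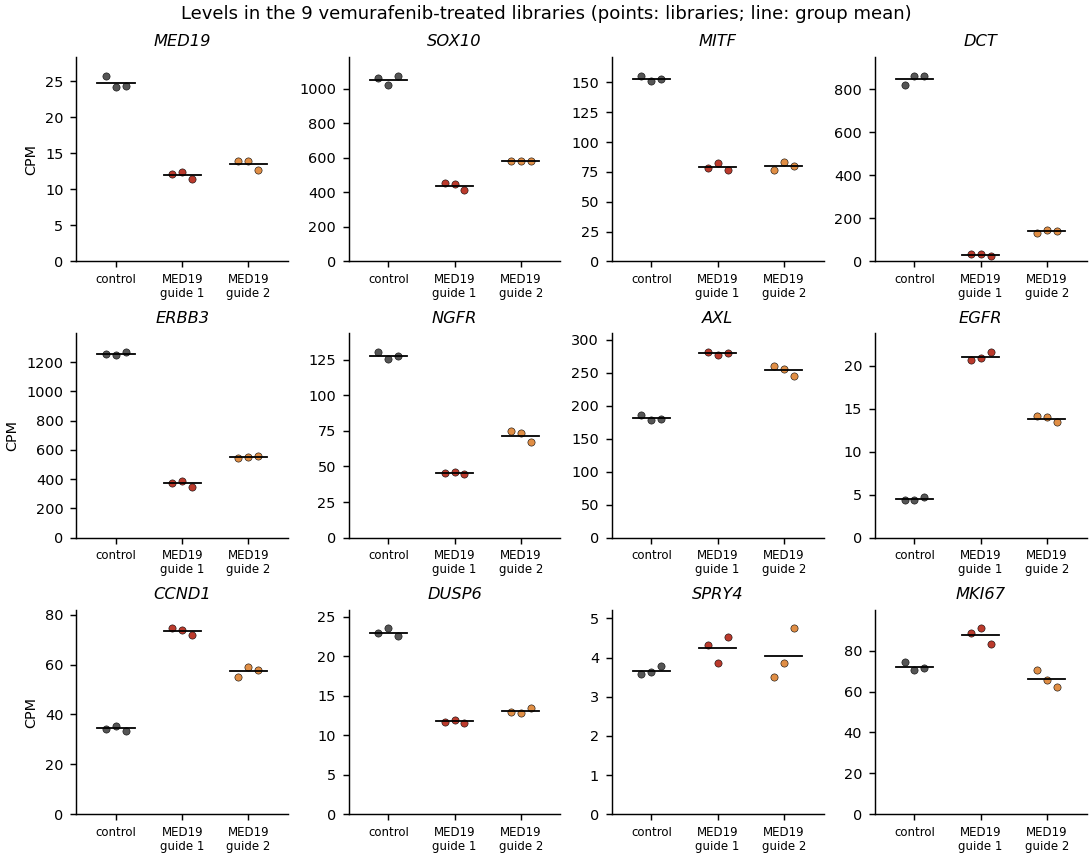
CPM of MED19 and 11 lineage, receptor and growth genes in each of the 9 libraries, on linear axes from 0, with points for libraries and a line for each group mean. SOX10, MITF, DCT, ERBB3, NGFR and DUSP6 are lower with both guides, AXL, EGFR and CCND1 are higher, and MKI67 is above the control with guide 1 (mean 87.7 CPM against 72.2) and below it with guide 2 (66.0 CPM).

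Melanosome genes did not move together. Of 17 measured, 9 were lower and 5 higher, with a median log2 fold change of -0.31. GPNMB, a melanosome glycoprotein, was at 1124, 1158 and 1141 CPM in the control, 556, 570.1 and 531 with guide 1 and 645, 659 and 667 with guide 2. It fell with both guides, more with guide 1 (log2 -0.92 ± 0.025, adjusted p = 1.57e-33). TYR, the first enzyme of melanin synthesis, was at 0.357, 0.212 and 0.401 CPM in the control, 0.0144, 0 and 0 with guide 1 and 0.0528, 0.0275 and 0.0855 with guide 2. In the MED19 libraries it was close to 0, so no fold is given. Its adjusted p was 0.000112 with edgeR and 0.0713 with DESeq2. TYRP1 was at 0.809, 0.791 and 0.597 CPM in the control, 0.859, 1.71 and 1.33 with guide 1 and 1.04, 0.978 and 1.15 with guide 2. It rose from a low level (log2 0.67 ± 0.21, adjusted p = 0.0068), a call that was lost without control replicate 3 (adjusted p = 0.0706) and with guide 2 alone (0.0799). Higher as well were RAB27A (0.78) and RAB32 (0.43), which act in melanosome transport and formation. MLANA did not pass (log2 -0.18, adjusted p = 0.254).

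The letters TCATGTG, a core of the M-box through which MITF binds pigment genes, were searched on both strands in the 300 bases around each RefSeq gene start (250 before and 50 after, GRCh38.p14). They were present in 6 of the 14 pigment genes with a window (42.9%) and in 2.92% of all 35116 windows. The 6 were TYR, TYRP1, GPR143, SLC24A5, GPNMB and TSPAN10. TYR and GPNMB fell, TYRP1, GPR143 (log2 1.17) and TSPAN10 (0.42) rose, and SLC24A5 was not measured above the count filter. The 250 bases before the start of GPNMB, which fell, and of TYRP1, which rose, are shown 5′ to 3′ on the gene's strand with the motif in capitals. GPNMB lies on the plus strand (chr7:23246525-23246774) and its 2 matches read on the opposite strand, as CACATGA. TYRP1 is also on the plus strand (chr9:12693135-12693384).
GPNMB: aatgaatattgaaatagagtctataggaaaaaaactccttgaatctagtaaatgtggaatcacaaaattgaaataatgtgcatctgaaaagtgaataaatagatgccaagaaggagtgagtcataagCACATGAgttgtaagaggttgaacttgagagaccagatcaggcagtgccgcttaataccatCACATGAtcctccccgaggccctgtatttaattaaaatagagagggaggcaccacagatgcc
TYRP1: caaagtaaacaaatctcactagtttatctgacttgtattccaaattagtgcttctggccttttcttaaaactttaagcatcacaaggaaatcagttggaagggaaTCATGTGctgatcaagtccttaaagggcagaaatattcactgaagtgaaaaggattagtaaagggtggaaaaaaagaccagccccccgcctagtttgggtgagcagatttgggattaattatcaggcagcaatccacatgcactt
Both windows hold the letters, one before a gene that fell and the other before a gene that rose. The TYRP1 rise was from a low level and its call was lost in some settings, as given above.

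Dedifferentiated and invasive genes rose more often than they fell. Of 18 measured, 13 were higher and 3 lower (median log2 fold change 0.54). AXL, a receptor tyrosine kinase, was at 187, 178 and 181 CPM in the control, 282, 277 and 280.0 with guide 1 and 260.4, 256 and 245 with guide 2. No MED19 library overlapped the control (log2 0.55 ± 0.024, adjusted p = 4.58e-25). SOX9 (1.73), a factor of the dedifferentiated state, INHBA (1.11), the activin subunit, WNT5A (0.97), a non-canonical Wnt ligand, and ZEB1 (0.61) also rose, while ZEB2 and SNAI2 fell as given above. CD44 (-0.86), the hyaluronan receptor, DKK1 (-0.88), a Wnt antagonist, and the matrix protein TNC (-0.40) fell.

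Receptor tyrosine kinases and their ligands split, with 14 of 28 higher and 8 lower. EGFR, the epidermal growth factor receptor, was at 4.36, 4.38 and 4.73 CPM in the control, 20.7, 20.9 and 21.6 with guide 1 and 14.1, 14.0 and 13.5 with guide 2. Each guide stood apart from the control and guide 1 was above guide 2, for a log2 fold change of 1.93 ± 0.052 (adjusted p = 2.14e-33). PDGFC (1.60) and VEGFC (1.69), growth factor ligands, FGFR1 (1.00) and MET (0.58) rose. KDR (-1.73), a VEGF receptor, ERBB4 (-1.52), FGFR2 (-1.39), FGF1 (-0.90) and ERBB3 fell. Within the EGFR family, EGFR therefore rose while ERBB3 and ERBB4 fell. With both guides treated as 1 group of 6, 5 members of this list were lower.

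ERK pathway targets, which BRAF inhibition is known to lower, showed no common direction, with 9 of 18 higher and 7 lower. DUSP6, a phosphatase that switches ERK off, was at 22.9, 23.5 and 22.5 CPM in the control, 11.7, 12.0 and 11.6 with guide 1 and 12.9, 12.8 and 13.5 with guide 2. It was lower in all 6 MED19 libraries (log2 -0.89 ± 0.038, adjusted p = 3.25e-25). DUSP4, another ERK phosphatase, fell from a mean of 196 CPM to 65.8 with guide 1 and 90.4 with guide 2 (log2 -1.34 ± 0.025). ETV5 (1.04) and ETV4 (0.67), transcription factors, and the RAS pathway inhibitors SPRY1 (1.04) and SPRED3 (0.99) rose. SPRY4 was at 3.58, 3.64 and 3.79 CPM in the control, 4.33, 3.87 and 4.52 with guide 1 and 3.50, 3.87 and 4.75 with guide 2, with overlapping groups (log2 0.15 ± 0.070, adjusted p = 0.0772). Leaving out guide 1 replicate 2 (adjusted p = 0.0374) or guide 2 replicate 1 (0.0099) brought it under the threshold, as did the replicate block (0.0277), guide 1 alone (0.0247) and the absence of the low-count filter (0.00414).

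Immediate early genes of the AP-1 and EGR families divided by member. Of 23 measured, 11 were lower and 7 higher (median log2 fold change -0.20). JUN was at 379, 377 and 382 CPM in the control, 73.8, 72.4 and 72.2 with guide 1 and 123, 129.6 and 126 with guide 2. The groups stood apart, with a log2 fold change of -1.99 ± 0.032 (adjusted p = 3.28e-42). FOS was at 10.7, 10.7 and 10.9 CPM in the control, 1.54, 1.88 and 1.27 with guide 1 and 2.79, 2.85 and 3.28 with guide 2, and its log2 fold change was -2.33 ± 0.10 (adjusted p = 3.9e-25). FOSL2 (-1.09), EGR3 (-1.59), EGR1 (-1.48), NR4A1 (-1.31) and ATF3 (-1.02) fell as well, whereas JUNB (0.51), JUND (0.74) and KLF4 (0.71) rose. Among the 3 JUN paralogs, JUN therefore fell and the others rose. The letters TGACGTCA, to which CREB and ATF factors bind, were in 2 of 19 windows of this list (10.5%) and in 1.85% of all windows.

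Targets and partners of YAP and TEAD, the nuclear end of the Hippo pathway, were mostly higher. Of 22 measured, 16 were higher and 5 lower (median log2 fold change 0.43). CCN1, a secreted matrix protein and YAP target, was at 16.5, 16.4 and 18.3 CPM in the control, 67.3, 66.1 and 72.6 with guide 1 and 36.2, 36.4 and 34.4 with guide 2. Guide 1 was above guide 2 and both were above the control (log2 1.53 ± 0.054, adjusted p = 1.01e-28). ANKRD1, a muscle ankyrin protein and YAP target, was at 1.04, 1.49 and 1.25 CPM in the control, 7.88, 8.14 and 8.73 with guide 1 and 2.08, 3.21 and 2.81 with guide 2. It had the widest gap between guides in the list (log2 1.87 ± 0.11 over both, adjusted p = 2.42e-19). ARHGAP29 (2.10), AJUBA (1.40) and CRIM1 (0.98) rose, but CCN2 (-0.42), a classical YAP target, the coactivator WWTR1 (-0.80), also called TAZ, TEAD1 (-0.67) and the scaffold AMOTL1 fell. GGAATG, the core of the TEAD site, was in 5 of 18 windows of this list (27.8%) against 14% of all windows. The 250 bases before the start of ANKRD1 (chr10:90921088-90921337, minus strand) are shown on the gene's strand with its 2 matches in capitals, because this gene had the largest gap between guides among those lower with guide 2.
ANKRD1: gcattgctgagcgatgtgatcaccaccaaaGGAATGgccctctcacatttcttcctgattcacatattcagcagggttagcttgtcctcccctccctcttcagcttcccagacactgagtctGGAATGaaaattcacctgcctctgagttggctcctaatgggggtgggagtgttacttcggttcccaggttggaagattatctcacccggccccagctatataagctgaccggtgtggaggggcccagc

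**Figure D2:**
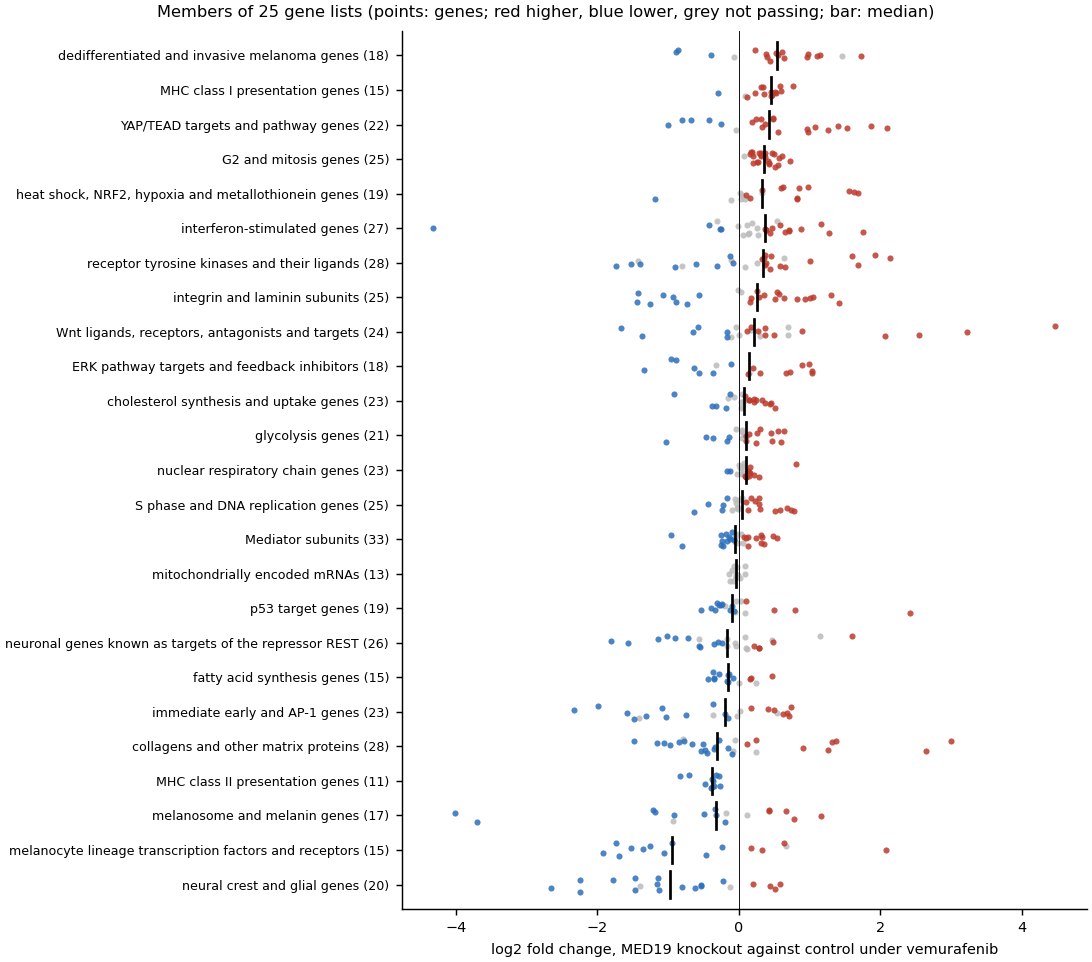
Log2 fold change of each measured member of 25 gene lists in MED19 knockout against control under vemurafenib, with the number of members in brackets and a black bar at the median. Neural crest and lineage lists have medians near -1, invasive, MHC class I and YAP/TEAD lists have medians of 0.43 to 0.54, G2 and mitosis genes form a narrow band above 0, and none of the 13 mitochondrial mRNAs passed.

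Wnt pathway genes included 11 higher and 6 lower of 24. Changes of at least 2-fold were found in 4 higher and 2 lower, and these 2 are not among those named here. WNT9A was at 1.34, 1.65 and 1.12 CPM in the control, 14.4, 12.7 and 14.2 with guide 1 and 11.7, 11.6 and 11.9 with guide 2, and its groups stood far apart (log2 3.22 ± 0.081, adjusted p = 9.91e-35). AXIN2, a feedback target of β-catenin, was at 0.281, 0.415 and 0.534 CPM in the control, 3.00, 2.77 and 2.70 with guide 1 and 2.22, 2.09 and 1.90 with guide 2. All MED19 libraries were above all controls (log2 2.56 ± 0.19, adjusted p = 3.03e-16). TCF7 (0.89) and the receptors FZD2 (0.50) and FZD7 (0.37) rose, and FZD4 (-0.57) and TCF7L1 (-0.64) fell. Of 26 TGF-β and BMP genes, 12 were higher, led by BMP4 (2.61), SMAD3 (0.91), SMAD7 (0.91) and TGFB3 (0.83), and 8 were lower, among them the activin antagonist FST (-1.46), the receptor TGFBR2 (-0.66) and the BMP targets ID2 (-0.48) and ID3 (-0.42).

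Guidance and adhesion genes were rearranged in both directions. Of 26 semaphorins, plexins, ephrins and Eph receptors, 13 were higher and 11 lower. The receptors EPHA5, EPHA7 (1.29) and EPHB2 (1.28) and the secreted SEMA3A (1.41) rose, whereas NRP2 (-1.51), a semaphorin receptor, SEMA6A (-1.39) and SEMA3C (-0.90) fell. Of 25 integrin and laminin subunits, 15 were higher and 8 lower. LAMB3 (1.42), ITGA3 (1.05), which forms a laminin receptor, and ITGB5 (1.01) rose, and ITGB3 (-1.44), ITGA4 (-1.26) and LAMB1 (-0.93) fell. ITGB3 was at 25.0, 23.7 and 24.6 CPM in the control, 8.82, 7.75 and 8.34 with guide 1 and 8.88, 10.3 and 10.4 with guide 2, so both guides were well under the control.

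Matrix genes fell more often than they rose. Of 28 collagens and other matrix proteins, 16 were lower and 8 higher (median log2 fold change -0.31). COL8A1 (-1.47), THBS2 (-1.15), BGN (-1.06) and COL5A2 (-0.97) fell, while COL1A1 (1.31), COL12A1 (1.26), COL5A1 (0.91) and the crosslinking enzyme LOXL4 (1.37) rose, so the chains of collagen V moved in opposite directions. Matrix proteases and their inhibitors counted 9 higher and 9 lower of 24, with MMP2 (0.73) higher and MMP15 (-1.65), MMP8 (-2.00) and the inhibitor TIMP3 (-1.33) lower. Of 20 cytokines, chemokines and IGF binding proteins, 9 were higher and 5 lower. IGFBP7 (1.77) and IGFBP3 (1.72) rose and IGFBP5 (-1.90) fell, and the interleukins IL24, given above, and IL1A (-1.65) were lower.

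G2 and mitosis genes were mostly higher by small amounts, and DNA replication genes were mixed. Of 25 G2 and mitosis genes, 24 were higher, with a median log2 fold change of 0.36 and no gene reaching 2-fold. BIRC5, the mitotic survival protein survivin, was at 15.0, 14.5 and 14.5 CPM in the control, 28.0, 25.9 and 26.8 with guide 1 and 22.2, 24.2 and 19.6 with guide 2. It had the largest change in the list (log2 0.73 ± 0.049, adjusted p = 7.43e-18). MKI67, the proliferation antigen Ki-67, was the member that did not pass, at 74.5, 70.7 and 71.4 CPM in the control, 88.8, 90.9 and 83.4 with guide 1 and 70.4, 65.5 and 62.1 with guide 2. Its MED19 libraries lay on both sides of the control (log2 0.078 ± 0.038, adjusted p = 0.1). Guide 1 alone gave 0.28 ± 0.044 (adjusted p = 4.4e-07) and guide 2 alone -0.13 ± 0.045 (adjusted p = 0.0228), and without guide 1 replicate 3 or guide 2 replicate 3 the adjusted p over both was 0.0429 or 0.0345. DNA replication genes counted 12 higher and 5 lower of 25, from RRM2 (0.78) and UHRF1 (0.68) to CDC6 (-0.44) and POLA1 (-0.63). With guide 2 alone, 6 were higher and 8 lower.

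Regulators of G1 moved member by member, with 4 of 14 higher and 7 lower. CCND1, which encodes cyclin D1, was at 34.3, 35.5 and 33.4 CPM in the control, 74.5, 73.8 and 71.8 with guide 1 and 55.2, 59.2 and 57.9 with guide 2. The groups did not overlap (log2 0.92 ± 0.027, adjusted p = 5.74e-32). Its kinase partner CDK6 (1.01) rose on the log2 scale, and CDK4 fell slightly (-0.12). The CDK inhibitors CDKN1C (-0.94) and CDKN2C (-0.42) fell, CDKN1B (0.34) rose, and CDKN1A, the p53 target p21, was at 308, 298 and 312 CPM in the control, 339, 302 and 319 with guide 1 and 277, 274 and 266 with guide 2. Guide 1 overlapped the control for CDKN1A and guide 2 was below it, with 0.065 ± 0.032 (adjusted p = 0.104) and -0.17 ± 0.032 (adjusted p = 2.76e-05) on the log2 scale, and over both guides the adjusted p was 0.135, or 0.0258 without guide 1 replicate 1. Of 19 p53 targets, 4 were higher and 10 lower (median log2 fold change -0.091), with FAS (0.80) and BTG2 (0.49) higher and TP53INP1 (-0.54), PHLDA3 (-0.40) and MDM2 (-0.28) lower.

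Death regulators of the BCL2 family counted 6 higher and 6 lower of 16. PMAIP1, which neutralises MCL1, was at 1.57, 1.86 and 1.69 CPM in the control, 11.2, 12.2 and 12.6 with guide 1 and 7.86, 8.19 and 9.29 with guide 2. Every MED19 library was above every control (log2 2.56 ± 0.071, adjusted p = 5.7e-33). BCL2A1, an anti-death member regulated by MITF in melanoma, was at 5.09, 5.29 and 3.82 CPM in the control, 0.935, 1.16 and 0.933 with guide 1 and 1.49, 2.18 and 1.55 with guide 2. It was lower in all 6 MED19 libraries (log2 -1.84 ± 0.15, adjusted p = 1.18e-14). Among the BH3-only pro-death genes, HRK (-1.41), BMF (-0.85) and BCL2L11 (-0.52), which encodes BIM, fell, opposite to PMAIP1, and BBC3 did not pass (0.094, adjusted p = 0.199). The anti-death genes BCL2L1 (0.40) and MCL1 (0.092) rose by less.

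Both arms of antigen presentation changed, in opposite directions. Of 15 MHC class I presentation genes, 13 were higher and 1, HLA-E (-0.29), lower (median log2 fold change 0.46). B2M, the invariant chain of class I, was at 521, 524 and 516 CPM in the control, 799.5, 814 and 782 with guide 1 and 769, 779.8 and 776 with guide 2. No MED19 library overlapped the control, and the guides overlapped each other (log2 0.60 ± 0.044, adjusted p = 1.62e-16). HLA-B (0.59), HLA-C (0.46), the class I activator NLRC5 (0.51) and IRF1 (0.77) rose. All 11 MHC class II genes measured were lower (median -0.38). CIITA, the class II activator, was at 109, 106 and 107 CPM in the control, 53.2, 51.0 and 54.3 with guide 1 and 69.2, 65.9 and 73.3 with guide 2. It had the lowest log2 fold change in its list, -0.82 ± 0.052 (adjusted p = 7.87e-19), and HLA-DRA (-0.47) and CD74 (-0.27) fell too. HLA genes are alike in sequence, and how reads shared between them were counted is not given in the sources used here, so single HLA values are uncertain.

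Interferon-stimulated genes were higher in part, with 13 of 27 higher and 4 lower (median log2 fold change 0.37). By at least 2-fold, 3 were higher and 1, not among those named here, was lower. OASL (1.75), MX1 (0.87), OAS2 (0.72) and ISG15 (0.59) rose, IFIT3 (-0.42), MX2 (-0.27) and STAT2 (-0.26) fell, and IFI6 did not pass (0.27, adjusted p = 0.119), although its adjusted p was 5.78e-07 in a fit of only the groups compared and 0.0495 with the replicate block. Without the low-count filter 20 members were higher. IFIT1, an antiviral RNA-binding protein, was at 13.7, 12.7 and 13.8 CPM in the control, 19.6, 21.1 and 17.8 with guide 1 and 17.5, 17.7 and 16.0 with guide 2. All MED19 libraries were above all controls (log2 0.44 ± 0.17, adjusted p = 0.0357), but the call was lost when any of 6 of the 9 libraries was left out (adjusted p 0.053 to 0.11: control replicates 1, 2 and 3, guide 1 replicate 2, guide 2 replicates 1 and 2) and with guide 2 alone (adjusted p = 0.19). GAAANNGAA, a core of the interferon response element, was in 14 of 21 windows of this list (66.7%) and in 8.11% of all windows, with matches in IFIT1, IFIT3 and IFI6.

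Stress genes were higher more often than lower. Of 19 heat shock, NRF2, hypoxia and metallothionein genes, 12 were higher and 1, HMOX1 (-1.18), lower. HSPA1A, an inducible HSP70, was at 40.9, 40.3 and 41.1 CPM in the control, 148, 146 and 141 with guide 1 and 121, 115 and 119 with guide 2. All MED19 libraries lay well above the control (log2 1.69 ± 0.032, adjusted p = 1.8e-39). The paralog HSPA1B (1.63) shares nearly all of its sequence with HSPA1A, so the split of reads between them is uncertain. TXNRD1, thioredoxin reductase, was at 205, 210.3 and 208 CPM in the control, 429, 425 and 434 with guide 1 and 395, 392 and 395 with guide 2, with no overlap (log2 0.98 ± 0.022, adjusted p = 1.25e-36). Of 20 ATF4 and unfolded protein response genes, 8 were higher and 6 lower, from TRIB3 (0.42) to PSAT1 (-0.76) and DDIT4 (-0.78).

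Metabolic lists moved little. None of 13 mitochondrially encoded mRNAs passed with edgeR (log2 fold changes -0.14 to 0.085), nor at an unadjusted p under 0.05 (0) or with DESeq2 (0), although 2 were higher and 4 lower without the low-count filter and MT-ATP8 passed without guide 1 replicate 2 (adjusted p = 0.0166). Of 23 nuclear respiratory chain genes 12 were higher and 2 lower (median 0.10), PPARGC1A (0.81), their coactivator, most. Of 21 glycolysis genes, 11 were higher, with ENO1 (0.47), TPI1 (0.45) and the glucose transporter SLC2A1 (0.55) among them, and 5 lower, led by HK2 (-1.03). Cholesterol genes counted 11 higher and 5 lower of 23. Fatty acid synthesis genes were lower in 10 of 15, FASN (-0.44) most, and higher in 3. TCACNCCAC, the sterol response element bound by SREBP, was in 1 of 18 cholesterol windows (5.6%), in none of 15 fatty acid windows and in 1.13% of all windows. Amino acid transporters divided, with SLC38A1 (1.06) and SLC1A5 (0.84) higher and SLC7A8 (-1.55) and SLC7A11 (-0.62) lower.

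In the transcription machinery beside Mediator, more genes were higher than lower, mostly by small amounts. Of 30 RNA polymerase II initiation and elongation genes, 16 were higher and 6 lower (median log2 fold change 0.096). POLR2A, the largest polymerase subunit, was at 448, 432 and 450.0 CPM in the control, 684, 758 and 639 with guide 1 and 839, 828 and 835 with guide 2. All 6 MED19 libraries were above the control, with guide 2 above guide 1 (log2 0.78 ± 0.030, adjusted p = 1.9e-27). ELL2, an elongation factor, was at 21.4, 21.4 and 20.2 CPM in the control, 45.4, 47.7 and 48.5 with guide 1 and 30.6, 32.8 and 26.9 with guide 2, with the guides in the other order (log2 0.84 ± 0.044, adjusted p = 5.45e-22). Replication-dependent histone genes were higher in 8 of 11 and lower in 1 (median 0.62), with H1-2 (1.15) and H2BC12 (1.25) among them. These mRNAs mostly lack a poly(A) tail and the library molecule is polyA RNA, so their counts depend on the few tailed copies. Neuronal genes known as REST targets were lower in 11 of 26 and higher in 5 (median -0.16), with CHGB (1.60) the largest rise and STMN3 (-1.02) and DRD2 (-1.14) among those that fell, and REST itself at -0.06 (adjusted p = 0.0957, and 0.0322 without guide 1 replicate 2). The number higher among these genes was 3 with both guides as 1 group of 6, 3 without control replicate 2 and 2 with guide 2 alone.

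Some markers of other cell types changed too. Summed over 5 epithelial markers, levels were 12.3 to 13.4 CPM in the control, 16.5 to 18.7 with guide 1 and 13.5 to 16.5 with guide 2. KRT18 (1.25), KRT8 (0.65) and CLDN4 (1.28) rose and ESRP1 (-2.19), an epithelial splicing factor, fell. The sum over 5 fibroblast markers was 40.3 to 43.4 CPM in the control, 44.2 to 46.5 with guide 1 and 34.9 to 36.3 with guide 2, and that over 4 endothelial markers was 6.18 to 7.04 in the control, 3.25 to 3.86 with guide 1 and 2.91 to 3.48 with guide 2. By member, 7 of 12 epithelial markers tested were higher and 1 lower, 5 of 8 fibroblast markers were higher and 1 lower (median log2 fold change 0.86, and 3 higher with guide 2 alone), and 2 of 7 endothelial markers were higher and 2 lower. The endothelial shares, 28.6% in each direction, were near those of all genes tested (23.1% higher and 20.7% lower). Each of the endothelial counts went down to 1 with single libraries left out: for higher, control replicate 2, guide 1 replicate 3 or guide 2 replicate 1, and for lower, control replicate 1, control replicate 2 or guide 2 replicate 3. Their part in the matrix and adhesion results was not tested.

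Among the genes called over both guides, the guides differed in size more than in direction. The sign differed from that over both guides in 2 genes with guide 1 alone and in 0 with guide 2 alone. Calling genes on the mean of both guides favours a common sign. Outside the called genes, MKI67 passed in opposite directions (log2 0.28 with guide 1 alone and -0.13 with guide 2 alone). Of the 2227 genes called, guide 1 had the larger log2 change in 1688 (75.8%), and the median size was 1.72 with guide 1 and 1.42 with guide 2. Tested directly, guide 2 minus guide 1, 52 genes were higher with guide 2 and 140 lower by at least 2-fold (0.699% of genes tested together), and 599 of the 2227 differed at an adjusted p under 0.05 whatever the fold. DCT was 2.19 ± 0.086 on the log2 scale in that comparison (adjusted p = 2.31e-24), PCSK2 1.87 ± 0.11, the fatty acid receptor CD36 1.38 ± 0.12, the adhesion protein FLRT1 1.23 ± 0.14 and BEST1 1.08 ± 0.15, all less reduced with guide 2. ANKRD1 was -1.68 ± 0.10 (adjusted p = 2.35e-17), the alkaline phosphatase ALPP -1.13 ± 0.071, CD24 -1.09 ± 0.089, the receptor GLP2R -1.06 ± 0.11 and TMEM130 -1.03 ± 0.098, all higher with guide 1. ALPP has near-identical paralogs and CD24 has processed copies, so their counts are uncertain.

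Whole lists separated the guides. At an adjusted p under 0.05, 24 of 25 mitosis genes and 19 of 25 replication genes were lower with guide 2 than with guide 1, against 6.84% lower and 4.88% higher over all genes. E2F2 and CDK1, chosen after their values were seen, are given as examples: E2F2 was at 0.843, 0.694 and 0.880 CPM in the control, 1.57, 1.56 and 1.64 with guide 1 and 0.932, 0.812 and 0.698 with guide 2, and CDK1 at 12.2, 12.8 and 12.6 CPM in the control, 17.7, 17.9 and 17.7 with guide 1 and 13.8, 13.2 and 10.4 with guide 2. With guide 2 the levels of both came close to the control, and neither passed with guide 2 alone (adjusted p = 0.798 and 0.834 with edgeR). The mitosis list as a whole did not return to the control. With guide 2 alone, 1 member was lower than the control, and the number higher stayed within 1.5 times of the 24 over both guides. YAP/TEAD genes were lower with guide 2 in 16 of 22, neural crest genes higher in 11 of 20, and MHC class II genes higher in 9 of 11, each nearer to the control. No member of the class I list (0 of 15) or the interferon list (0 of 27) passed between guides with edgeR or DESeq2. At an unadjusted p under 0.05 the counts were 2 and 0. Both tests took the spread from all 42 libraries, so the absence of a call does not show that the guides agree. Guide 1 and guide 2 libraries did not overlap in 11 of the 27 interferon genes (median log2 -0.13) and 3 of the 15 class I genes, against 24.7% of all genes tested. MED19 mRNA itself was higher with guide 2 by 0.18 ± 0.054 (adjusted p = 0.0159).

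**Figure D3:**
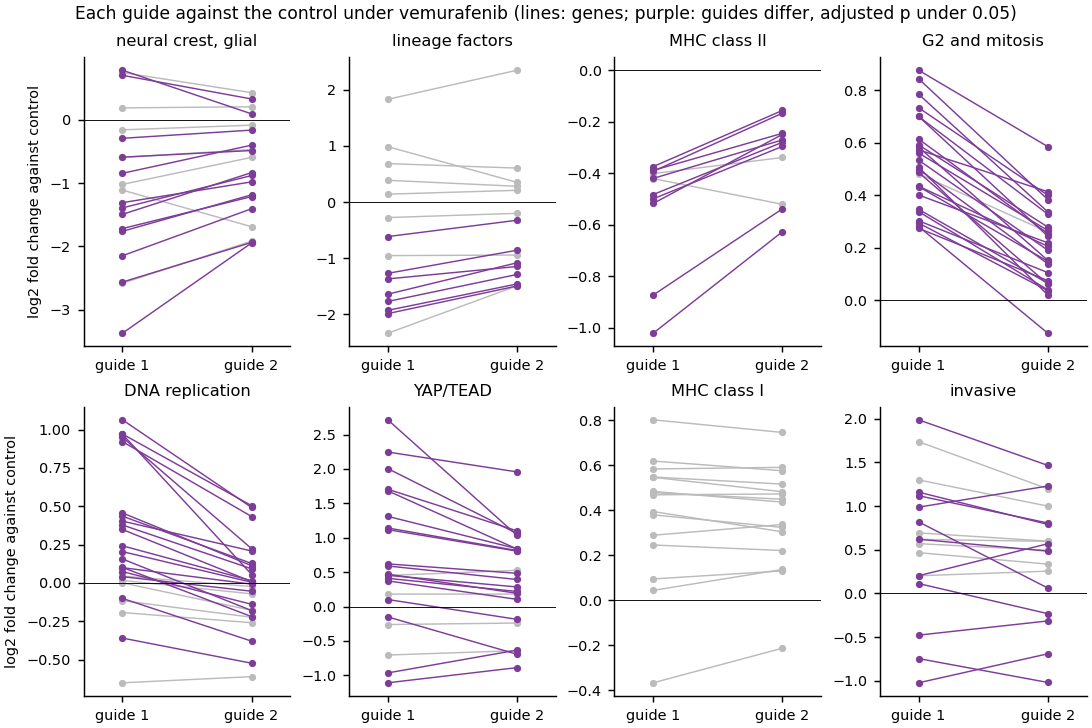
Log2 fold change against the control under vemurafenib with guide 1 and guide 2, a line for each measured gene of 8 lists, in purple where the guides differed at an adjusted p under 0.05. Most lines of the neural crest, mitosis and YAP/TEAD lists come closer to 0 with guide 2, and no line of the MHC class I list is purple.

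The effect of MED19 loss differed between drug and solvent. The effect under vemurafenib minus the effect in DMSO, tested as an interaction, differed from 0 by at least 2-fold at an adjusted p under 0.05 in 617 genes upward (2.25%) and 791 downward (2.88%), 5.13% of genes tested together. Against DMSO controls, MED19 loss called 976 genes higher and 753 lower. Of these, 365 were also higher under the drug (37.4% of the DMSO calls and 33.3% of the drug calls) and 288 also lower (38.2% and 25.5%), from comparisons that share no libraries.

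JUN rose less with the drug without MED19. Its level in DMSO was 12.0, 12.5 and 11.6 CPM in the control, 21.6, 24.0 and 22.5 with guide 1 and 18.8, 18.0 and 18.6 with guide 2, and under the drug it had the levels given above. The drug raised JUN 31.5-fold in the control and 4.68-fold without MED19, MED19 loss raised it in DMSO (log2 0.77 ± 0.041) and lowered it under the drug, and the interaction was -2.75 ± 0.053 (adjusted p = 2.41e-38). CCN3, a secreted matrix protein of melanocytes, followed the same pattern. It was at 11.0, 11.5 and 9.78 CPM in the control, 27.9, 28.3 and 28.4 with guide 1 and 21.8, 22.0 and 21.7 with guide 2 in DMSO and at 419, 413 and 425 CPM in the control, 114, 116 and 111 with guide 1 and 176, 189.6 and 196 with guide 2 under the drug, with an interaction of -2.73 ± 0.053 (adjusted p = 2.41e-38). FOS was at 4.56, 4.63 and 4.83 CPM in the control, 4.56, 4.58 and 4.51 with guide 1 and 5.49, 4.44 and 4.75 with guide 2 in DMSO, where the groups overlapped. The drug raised it in the control and lowered it without MED19 (interaction -2.34 ± 0.15, adjusted p = 2.68e-18).

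NAV2 and RAB3B reversed outright. NAV2 was at 6.08, 5.57 and 4.71 CPM in the control, 10.7, 11.4 and 11.5 with guide 1 and 10.5, 11.0 and 10.8 with guide 2 in DMSO and at 35.7, 34.0 and 36.5 CPM in the control, 4.05, 3.85 and 3.59 with guide 1 and 6.05, 5.95 and 6.64 with guide 2 under the drug. MED19 libraries were thus above the control in DMSO and below it under the drug (interaction -3.88 ± 0.10, adjusted p = 1.3e-32). RAB3B, a small GTPase of vesicle release, was at 4.46, 4.28 and 4.54 CPM in the control, 16.2, 17.7 and 17.3 with guide 1 and 12.9, 14.0 and 12.6 with guide 2 in DMSO and at 58.0, 54.3 and 58.1 CPM in the control, 16.1, 17.3 and 16.6 with guide 1 and 20.0, 20.6 and 20.5 with guide 2 under the drug, again crossing over (interaction -3.39 ± 0.074, adjusted p = 2.49e-36). ATP6V0A4, a proton pump subunit, was at 7.95, 6.91 and 5.46 CPM in the control, 29.3, 30.1 and 29.0 with guide 1 and 31.1, 28.7 and 33.0 with guide 2 in DMSO and at 7.67, 7.37 and 6.75 CPM in the control, 3.95, 3.98 and 3.38 with guide 1 and 4.21, 3.76 and 4.70 with guide 2 under the drug (interaction -3.03 ± 0.12).

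Among genes with positive interactions, LOXL4 was at 472, 509 and 517 CPM in the control, 123, 118 and 121 with guide 1 and 156, 161 and 168 with guide 2 in DMSO and at 64.5, 65.5 and 68.8 CPM in the control, 196, 179 and 189 with guide 1 and 158, 155 and 157 with guide 2 under the drug. The control fell with the drug and the MED19 libraries did not, so MED19 loss lowered LOXL4 in DMSO and raised it under vemurafenib (interaction 3.21 ± 0.042, adjusted p = 9.01e-46). HAPLN1, which links hyaluronan to proteoglycans, was at 275, 275 and 272 CPM in the control, 25.6, 28.4 and 25.8 with guide 1 and 55.8, 64.6 and 61.5 with guide 2 in DMSO and at 51.7, 49.9 and 52.2 CPM in the control, 34.6, 34.8 and 35.0 with guide 1 and 38.9, 40.1 and 36.9 with guide 2 under the drug, lower without MED19 in both (interaction 2.29 ± 0.069). ANKRD1 was at 11.5, 9.42 and 10.1 CPM in the control, 8.26, 8.50 and 8.16 with guide 1 and 5.95, 6.63 and 5.88 with guide 2 in DMSO (interaction 2.40 ± 0.14, adjusted p = 5.68e-20). RN7SL2 (2.96 ± 0.68) and RN7SL4P (2.55 ± 0.62) also rank here, but these signal recognition particle RNAs have near-identical copies and their levels varied widely between replicates, with RN7SL2 at 3.44 to 40.3 CPM over the 3 guide 1 libraries under the drug, so they are uncertain.

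**Figure D4:**
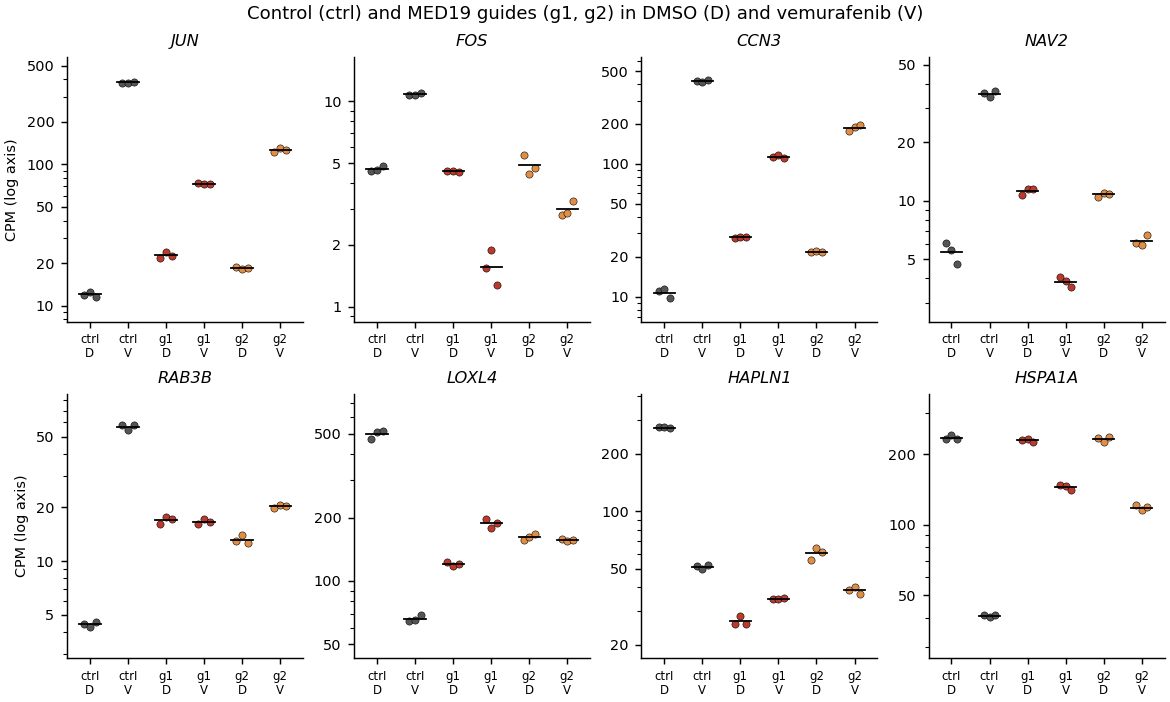
CPM on log axes of 8 genes in each library of the control and both MED19 guides, in DMSO and under vemurafenib. JUN, FOS, CCN3, NAV2 and RAB3B rise with the drug in the control and less or not at all without MED19, and LOXL4, HAPLN1 and HSPA1A fall with the drug in the control and less or not at all without MED19, except that HAPLN1 also falls with guide 2.

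By list, the interaction was positive in 24 of 25 mitosis genes (median log2 0.45), 17 of 25 replication genes, 17 of 20 ribosome biogenesis genes, 18 of 23 cholesterol genes and 16 of 21 glycolysis genes, against 17.4% of all genes tested. BIRC5 was at 128, 127 and 122 CPM in the control, 122, 124 and 121 with guide 1 and 129.7, 129 and 128 with guide 2 in DMSO, with overlapping groups, and the drug lowered it 8.56-fold in the control and 5.16-fold without MED19 (interaction 0.73 ± 0.063, adjusted p = 1.13e-13). HSPA1A was at 232, 242 and 232 CPM in the control, 229.5, 232 and 226 with guide 1 and 235, 227 and 237 with guide 2 in DMSO, with overlapping groups (interaction 1.71 ± 0.042, adjusted p = 2.53e-34), and TXNRD1 had an interaction of 0.85 ± 0.030. Negative interactions, 15.2% of all genes tested, were found in 12 of 13 mitochondrial mRNAs (median -0.38), 8 of 11 histone genes and 11 of 23 immediate early genes. For B2M (0.10 ± 0.060, adjusted p = 0.249) and CIITA (-0.15 ± 0.075, adjusted p = 0.124) no difference between drug and solvent was detected, while 6 of the 11 class II genes had a positive interaction (54.5%, median 0.215).

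Against MED23 knockout under the same drug, MED19 knockout was higher in 556 genes (2.03%) and lower in 641 (2.33%) by at least 2-fold, 4.36% of genes tested together. CD24, a surface sialoglycoprotein, had means of 5.00 CPM in the control, 22.3 and 10.4 with the MED19 guides, 102 and 112 with the MED23 guides and 46.3 and 49.5 with the MED12 guides. MED19 libraries were between the control and MED23 libraries (MED19 minus MED23, log2 -2.81 ± 0.061, adjusted p = 1.53e-36). PDE5A, a cyclic GMP phosphodiesterase, had means of 45.1 CPM in the control, 36.2 and 33.5 with the MED19 guides, 172 and 176 with the MED23 guides and 44.8 and 42.9 with the MED12 guides. MED23 libraries stood far above all the others, and MED19 libraries were the lowest (log2 -2.32 ± 0.041, adjusted p = 4.58e-40). GJA1 (-2.70 ± 0.12), which encodes connexin 43, HS6ST3 (-2.36 ± 0.086), a heparan sulfate sulfotransferase, and OTULINL (-2.29 ± 0.071) were also lower with MED19 than with MED23 loss. DNAH9, an axonemal dynein, had means of 64.1 CPM in the control, 42.7 and 55.1 with the MED19 guides, 11.4 and 8.57 with the MED23 guides and 12.4 and 9.61 with the MED12 guides. MED19 libraries were nearer to the control than MED23 libraries (log2 2.30 ± 0.051, adjusted p = 2.32e-36), as they were for the lipid carrier APOD (2.10 ± 0.090) and lysozyme, LYZ (1.63 ± 0.067), while LINC02367 (1.69 ± 0.064) and ITGB3 (1.67 ± 0.056) were reduced by both losses, less by MED19.

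Against MED12 knockout the differences were wider, with 1408 genes higher in MED19 knockout (5.13%) and 1886 lower (6.87%), 12% together, and 55.3% of genes passed whatever the fold. DCT had means of 848 CPM in the control, 30.5 and 139 with the MED19 guides, 23.6 and 16.3 with the MED23 guides and 9.47 and 2.85 with the MED12 guides. MED19 libraries retained more of it than MED12 libraries (log2 3.65 ± 0.071, adjusted p = 1.22e-39). PTPRZ1 (3.95 ± 0.064), a glial phosphatase, SLC35F1 (3.29 ± 0.046) and the mucin MUC5B (3.35 ± 0.075) likewise were higher with MED19 than with MED12 loss, and SOX10 had means of 1053 CPM in the control, 437 and 582 with the MED19 guides, 387 and 323 with the MED23 guides and 91.3 and 70.4 with the MED12 guides (log2 2.65 ± 0.042). IFIT1 had means of 13.4 CPM in the control, 19.5 and 17.1 with the MED19 guides, 16.1 and 16.3 with the MED23 guides and 349 and 318 with the MED12 guides. MED12 libraries were far above all others (log2 -4.19 ± 0.14, adjusted p = 1.02e-30), as for RSAD2 (-5.49 ± 0.20), IFI44L (-4.40 ± 0.14), the troponin TNNT2 (-5.07 ± 0.11) and the lipid receptor OLR1 (-4.34 ± 0.10).

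MHC class II and neural crest lists were mostly higher with MED19 loss than with either of the others. All 11 class II genes were higher with MED19 than with MED23 loss (19% of all genes were) and all 11 higher than with MED12 loss (25.8%). CIITA had means of 107 CPM in the control, 52.9 and 69.5 with the MED19 guides, 37.8 and 36.7 with the MED23 guides and 14.5 and 12.3 with the MED12 guides. Class I genes were higher than with MED23 loss in 13 of 15 and lower than with MED12 loss in 14 of 15. B2M had means of 520.4 CPM in the control, 799 and 775 with the MED19 guides, 534 and 542 with the MED23 guides and 1044 and 1033 with the MED12 guides, so that MED23 libraries were near the control while MED12 libraries were highest. Neural crest genes were higher with MED19 loss in 14 of 20 against MED23 and 15 of 20 against MED12. All 25 mitosis and all 25 replication genes were lower than with MED12 loss, against 29.5% of all genes, and 26 of 27 interferon genes were. Against MED23, 8 of 25 mitosis genes were higher and 4 lower, and 3 of 25 replication genes were higher and 16 lower, where 19% of all genes were higher and 17.6% lower. MITF had means of 153 CPM in the control, 79.2 and 79.9 with the MED19 guides, 119 and 124 with the MED23 guides and 75.7 and 72.1 with the MED12 guides, so it was lower than with MED23 loss (log2 -0.61 ± 0.025) and slightly above MED12 loss (0.11 ± 0.025).

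**Figure D5:**
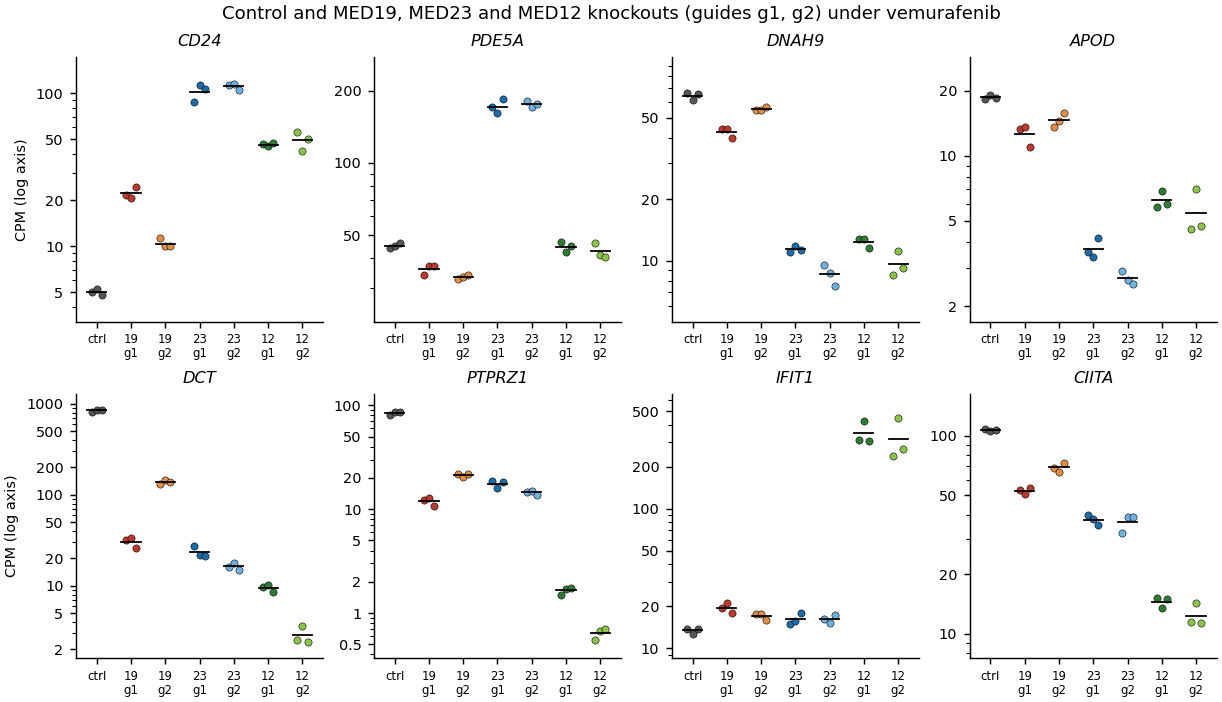
CPM on log axes of 8 genes in each vemurafenib-treated library of the control and the MED19, MED23 and MED12 knockouts, with 2 guides each. PDE5A and CD24 are highest with MED23 loss, IFIT1 is far higher with MED12 loss, DNAH9 and APOD are nearer to the control with MED19 loss than with the others, and DCT, PTPRZ1 and CIITA are lower in all 3 knockouts and lowest with MED12 loss.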

How the data were processed

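Gene counts were deposited by the authors for 66 libraries of polyA RNA, made with the KAPA stranded kit per the labels' protocols. The submitters' processing notes name bcl2fastq, HISAT2, HTSeq and the hg38 build, with no versions, and neither the annotation nor the strand setting used in counting was stated. Gene identifiers were matched to symbols with GENCODE 29 (58676 of 58721).

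The 42 libraries of the Mediator experiment (14 groups) were fitted together with edgeR 4.0.16 in R 4.3.3, with 1 mean per group, TMM scaling, and genes kept by filterByExpr (minimum count 10, minimum total 15), which left 27453. The quasi-likelihood test was used with Benjamini-Hochberg adjustment. A gene was called at an adjusted p under 0.05 and 2-fold, and members of lists at an adjusted p under 0.05. CPM values use the TMM-scaled library size. Totals of 65878321 to 194226148 counts per library leave little counting error except at the lowest levels. The procedure was checked on simulated counts. Alternatives were each guide alone, both guides as 1 group, no fold minimum, no count filter, DESeq2 1.42.0 size factors and its Wald test, a replicate block, only the groups compared, and each library left out.

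Gene lists and their members (43 lists, 865 different genes) were chosen with earlier results of these data known. Named genes were MED19, a set of 11 lineage and growth genes, the Mediator subunits, the 10 highest and 10 lowest genes of the MED19 knockout comparison and the 5 highest and 5 lowest of the others (with a symbol, an adjusted p under 0.05, a mean log2 CPM of at least 2, no overlap between the libraries compared except for the interaction and, for comparisons over both guides, the same sign past the test with each guide alone), and up to 6 members of each list with the largest changes, with members that moved against the rest or did not pass. E2F2, CDK1, IFIT1 and TYRP1 were chosen after their values were seen. Promoter windows are from RefSeq on GRCh38.p14. A few genes that this rule would name are not reported here.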

Additional observations from a re-analysis of the deposited data

Results flagged for a closer look

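The effect of MED19 loss under vemurafenib and the effect in DMSO were compared by an interaction term in edgeR's fit, and each result here differed between drug and solvent in that test. At an adjusted p under 0.05 and at least 2-fold, 1408 genes differed. The named genes with the largest positive differences, as effect under the drug minus effect in DMSO on the log2 scale, were LOXL4 (3.21), RN7SL2 (2.96), RN7SL4P (2.55), ANKRD1 (2.40) and HAPLN1 (2.29). Those with the largest negative differences were NAV2 (-3.88), RAB3B (-3.39), ATP6V0A4 (-3.03), JUN (-2.75) and CCN3 (-2.73). LOXL4 and ANKRD1 were lower in DMSO and higher under the drug without MED19, and NAV2, RAB3B, ATP6V0A4, JUN and CCN3 were higher in DMSO and lower under the drug. RN7SL2 and RN7SL4P are members of a family of near-identical copies. Single libraries standing apart were not searched for, because each group has 3 libraries.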

How the results depend on the processing

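Dropping the fold requirement moved the number of genes called to 12009 for MED19 knockout, 3218 between guides, 8943 for the interaction, 10031 against MED23 and 15183 against MED12. The other settings kept each count within 1.5 times: 1702 to 2492 for MED19 knockout (2227), 137 to 230 between guides (192), 990 to 1682 for the interaction (1408), 947 to 1407 against MED23 (1197) and 2527 to 3823 against MED12 (3294). Leaving out each library gave 2070 to 2290, 147 to 238, 1308 to 1437, 1180 to 1274 and 3281 to 3389. Of the 2227 genes, 1952 were called by guide 1 alone, 1553 by guide 2 alone and 2176 by DESeq2, and 1842 to 2063 with 1 library left out. Among named genes, CDKN1A (log2 0.065 with guide 1 alone) and MKI67 (-0.13 with guide 2 alone) changed sign; the cause was not tested. Under DESeq2 size factors every named gene kept its call, and the median of all genes was -0.0077 in place of -0.0050.

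Replicate numbers are shared between groups, but the labels give no common origin. Deviations of same-numbered libraries correlated at -0.066 to 0.114 (mean 0.051, 3 of 9 pairs over 0.1), other pairs at a mean of -0.025, and 7 of 9 libraries correlated best with their own number. With the number as a replicate block, 2210, 195, 1397, 1201 and 3290 genes were called in the order above. TYRP1 and TYR were under 2 CPM in all 9 libraries, and TYR rests on few counts in the MED19 libraries. Each lost its call in at least 1 setting, as did IFIT1, CDK1, E2F2 and PMEL.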

Other observations

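Retinoid and lysosome genes were also measured. Of 18 retinoid receptors and retinoic acid responders, 8 were higher and 6 lower under vemurafenib (median log2 fold change 0.29). The receptors divided by member. RXRG, a retinoid receptor given above that is not among these 18, fell further (-2.66). RARG rose (0.53 ± 0.033, adjusted p = 4.63e-19), and RARB, which retinoic acid induces in many cells, fell from 24.8 to 25.7 CPM to 10.2 to 11.8 with guide 1 and 14.1 to 15.8 with guide 2 (adjusted p = 5.15e-19), as did RARA (-0.42) and RXRA (-0.27). GPRC5A, an orphan receptor induced by retinoic acid, was at 65.4, 57.4 and 60.0 CPM in the control, 151, 145 and 149 with guide 1 and 133, 133 and 134 with guide 2. Every MED19 library was above every control (log2 1.21 ± 0.030, adjusted p = 1.18e-34). Its paralog GPRC5C rose from 0.193 to 0.244 CPM to 2.79 to 3.94 with guide 1 and 1.84 to 2.29 with guide 2. DHRS3 (-0.95), a retinal reductase, and CYP26B1 (-0.91), which breaks retinoic acid down, fell.

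Of 27 lysosome and autophagy genes, 9 were higher and 11 lower (median 0.015). The protease cathepsin B, CTSB, was at 196, 186 and 197 CPM in the control, 312, 306 and 307 with guide 1 and 319.8, 316 and 321 with guide 2, above the control in all 6 MED19 libraries (log2 0.70 ± 0.026, adjusted p = 1.34e-27). Cathepsin K, CTSK, was at 64.7, 66.3 and 66.6 CPM in the control, 37.5, 38.5 and 34.8 with guide 1 and 36.7, 38.1 and 40.3 with guide 2, below the control in all 6 (log2 -0.81 ± 0.042, adjusted p = 6.35e-22). GABARAPL1, an autophagy protein, rose (0.88). The interaction with the drug was negative in 15 lysosome genes and positive in 2, against 15.2% and 17.4% of all genes tested. Among 18 fatty acid uptake and oxidation genes, 5 were higher and 4 lower (7 lower with guide 1 alone), against 23.1% and 20.7% of all genes tested, and CD36, a fatty acid receptor, fell most (-2.40 ± 0.096). Ribosome biogenesis genes counted 5 higher and 8 lower of 20, with -0.28 for the methyltransferase gene FBL and 0.21 for the pseudouridine synthase gene DKC1.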
